A study of Mus musculus with 9 samples.

Results

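The genes described here encode the receptors for the inhibitory transmitter GABA, the enzymes that make and break it down, the transporters that move it, the proteins that anchor its receptors at the synapse, and the chloride transporters that set the driving force of its receptors. They were chosen by name from a list of 27 genes, of which 26 had an FPKM (fragments per kilobase of transcript, scaled to the total of mapped fragments) of 0.5 or more in at least 3 of 9 libraries, out of 14292 such genes in a table of 22482. Gabre, the ε receptor subunit gene, reached that level in 1 library and was not tested. RNA came from mouse brain in 3 groups of 3 libraries. Sham mice had the skull drilled and the dura opened with no damage to the brain, and their tissue came from the site that matches the injury. TBI mice had a traumatic injury of the brain from a heavy object that fell on it. C-β-LG/DSF mice had that injury too and then received C-β-LG/DSF, a nanoparticle agent, through a tail vein. The tissue of both was the injured area. The study asked about genes of pyroptosis and inflammation, and the GABA genes lie outside that question. The sources used here give no strain, age, sex, dose or time after injury, and an injured group that received the carrier alone was not analysed here. Nothing in the labels ties each library to an animal of its own, so the p-values measure only the spread between these samples, which may be technical.

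GABA opens chloride channels of the ionotropic GABA-A family, which are built from α, β and γ or δ subunits, and activates the metabotropic GABA-B receptor, an obligate dimer of the Gabbr1 and Gabbr2 products. Receptors with γ subunits mostly sit at synapses, where gephyrin and neuroligin hold them, and receptors with the δ subunit lie outside synapses and carry tonic inhibition. Whether chloride flows in or out depends on the exporter encoded by Slc12a5 (KCC2) and the importer encoded by Slc12a2 (NKCC1).

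The libraries were of similar depth relative to each other, at 0.930 to 1.098 times Sham 1 as estimated from the steps between low FPKM values; the number of fragments is not given. They differed in markers of brain regions. The summed FPKM of 12 thalamic marker genes was 35.4 to 39.1 in Sham, 51.5, 55.7 and 208 in TBI 1 to 3, and 50.4, 162 and 105 in C-β-LG/DSF 1 to 3. Markers of the hypothalamus and midbrain (16 genes) stood at 3.64 to 5.79 in Sham, at 6.93 to 10.2 in TBI 1, TBI 2 and C-β-LG/DSF 1, and at 35.0, 21.4 and 27.9 in TBI 3 and libraries 2 and 3 of C-β-LG/DSF. In these sums the thalamic markers Gbx2 and Lhx9 and 10 of the 16 hypothalamic and midbrain markers were listed at 0 in at least 1 library. TBI 3 and libraries 2 and 3 of C-β-LG/DSF thus stood apart from the other injured libraries in thalamic, hypothalamic and midbrain markers. This did not hold for every region. Striatal markers summed to 87.3, 114 and 522 FPKM in TBI 1 to 3 and to 164, 180 and 116 FPKM in C-β-LG/DSF 1 to 3. Neuronal markers (18 genes), which check the labelled tissue as brain, summed to between 5816 and 6042 FPKM in Sham, 3060, 4389 and 4129 in TBI 1 to 3, and between 4377 and 4827 with C-β-LG/DSF.

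The comparison of TBI with Sham gave the state of the GABA genes at the injured site. Of the 26 members, 8 fell and 2 rose at an adjusted p under 0.05 by limma. These are 30.8% and 7.69% of the members, where 12% of all tested genes fell and 14.9% rose, 26.8% in all. Gabrd, Slc12a5, Nlgn2, Gabbr2, Gabra4, Gabbr1, Gabra3 and Gabarapl1 fell, and Gabra5 and Gabarap rose. The median log2 difference of the members was -0.32, against 0.01 over all tested genes. In 12 members (46.2%) every TBI library lay on 1 side of every Sham library, beside 42.9% of all tested genes, so the share without overlap was near the background. The counts depended on single libraries. Without TBI 3, 13 members fell and 3 rose, where 2018 of the 14292 genes fell and 2355 rose (1709 and 2127 with all libraries). Without Sham 1, Sham 2 or Sham 3, 4, 5 and 4 members fell, and 1093, 1005 and 942 of all genes fell. Without TBI 3 and libraries 2 and 3 of C-β-LG/DSF, 9 members fell and 2 rose, and 1674 and 1985 of all genes. In bulk tissue, fewer neurons and less RNA per neuron cannot be told apart, and neuronal markers fell in 12 of 18 cases in the same comparison (median -0.59).

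**Figure D1:**
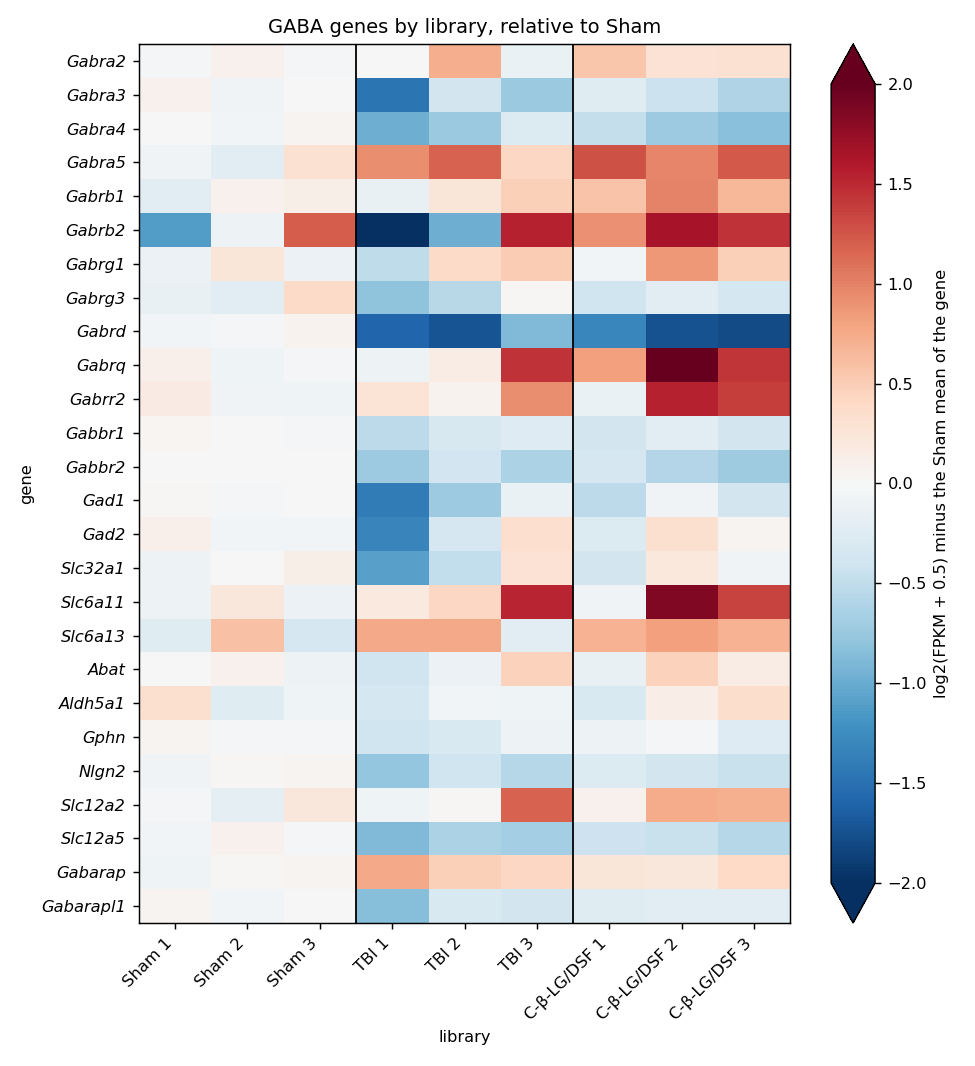
Each cell is log2(FPKM + 0.5) of a GABA gene (rows) in a library (columns), minus the Sham mean of that gene; colours beyond 2 in either direction are saturated. Gabrd is lower in all injured libraries and Gabra5 is higher, while Slc6a11 and Gabrq are high mainly in TBI 3 and libraries 2 and 3 of C-β-LG/DSF.

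Among the ionotropic receptor genes, the δ subunit gene Gabrd (ENSMUSG00000029054.8, chromosome 4, 155384980 to 155398112) had the largest difference. It was at 62.1, 63.4 and 67.3 FPKM in Sham, at 21.2, 19.1 and 34.5 FPKM in TBI 1 to 3 and at 25.7, 18.9 and 18.2 FPKM in C-β-LG/DSF 1 to 3. Every injured library lay below every Sham library, and TBI 3 was the highest of the injured ones. The log2 difference of TBI from Sham was -1.40 (SE 0.21, adjusted p = 0.0023), which is 2.64-fold lower, and the gene was called in all 17 alternatives. The intervals that the authors' program gave around each value, 37.9 to 86.4 FPKM in Sham 1 for example, lay above those of TBI 1 and TBI 2 in every Sham library. The interval of TBI 3 reached 48.6 FPKM and overlapped them, while those of the C-β-LG/DSF libraries reached at most 36.8 FPKM and did not. For Slc12a5, Nlgn2, Gabbr2, Gabra4, Gabbr1 and Gabarapl1, the intervals of every TBI library overlapped those of every Sham library. For Gabra3 the interval of TBI 1 alone lay below those of Sham.

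Of the α subunit genes, Gabra3 and Gabra4 fell and Gabra5 rose. Gabra4 (ENSMUSG00000029211.11), whose product pairs with δ outside synapses in the thalamus and dentate gyrus, was at 30.6, 29.2 and 31.7 FPKM in Sham, 15.3, 18.0 and 25.2 FPKM in TBI, and 21.6, 18.2 and 16.9 FPKM in C-β-LG/DSF. No injured library reached the Sham range, and the log2 difference of TBI was -0.66 (SE 0.17, adjusted p = 0.0182). The authors' intervals were wide, and those of all Sham and injured libraries overlapped. They ran from 11.4 to 49.8 FPKM in Sham 1 and from 2.74 to 27.8 FPKM in TBI 1, and began at 0 in C-β-LG/DSF 2. Gabra3 (ENSMUSG00000031343.13, chromosome X, 72432681 to 72656848), a synaptic α subunit gene, was at 43.3, 38.5 and 40.3 FPKM in Sham and at 14.5, 31.5 and 24.1 FPKM in TBI 1 to 3. TBI 1 was lowest, in which the neuronal markers were lowest too, and the log2 difference was -0.86 (SE 0.23, adjusted p = 0.0248). The calls of both genes depended on Sham libraries. Gabra4 did not pass without Sham 1 (adjusted p = 0.0573) or without Sham 3 (0.0637), where its adjusted p ranged from 0.00156 to 0.0637 over all alternatives. Gabra3 did not pass without Sham 1, Sham 2 or Sham 3 in turn (0.0583 to 0.0807), without TBI 3 and libraries 2 and 3 of C-β-LG/DSF together (0.0677), or in a fit of the 2 groups alone (0.0517), with a range of 0.00765 to 0.0807.

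Gabra5 (ENSMUSG00000055078.7, chromosome 7, 57407672 to 57510059 in GENCODE M21), the α subunit gene of extrasynaptic receptors abundant in the hippocampus, went the other way. Its FPKM was 7.33, 6.55 and 9.64 in Sham, 15.2, 18.2 and 10.5 in TBI 1 to 3, and 19.4, 15.8 and 18.7 in C-β-LG/DSF 1 to 3. All injured libraries were above all Sham libraries, with TBI 3 the closest to Sham. The log2 difference of TBI from Sham was 0.84 (SE 0.20, adjusted p = 0.0152), and it did not pass without Sham 1 (0.0547) or without Sham 2 (0.0576), over a range of 0.00258 to 0.0576. The authors' intervals for this gene were wide: their lower bound was 0 in all Sham libraries, in TBI 3 and in all C-β-LG/DSF libraries. The gene overlaps another gene on the opposite strand, and the strand setting of the authors' quantification is not given in the sources used here, so reads of the 2 genes may not have been told apart. Beside it, the hippocampal marker genes averaged 1.76, 1.23 and 1.01 above Sham in log2 units in TBI 1 to 3 and 1.31 to 1.47 in C-β-LG/DSF, and 6 of the 9 tested rose in TBI; their part in the Gabra5 difference was not tested.

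Gabra2, the other measured α gene, was at 12.1 to 13.3 FPKM in Sham and at 12.52, 21.03 and 11.4 FPKM in TBI, with overlapping groups and no call (log2 difference 0.20, 95% interval -0.24 to 0.64, adjusted p = 0.492). Because FPKM is scaled to transcript length, the levels of the 4 α genes can be set side by side. In Sham the order was Gabra3, Gabra4, Gabra2 and Gabra5 in every library, and Gabra5 made up 7.48% to 10.3% of their summed FPKM. In TBI 1 to 3 it made up 26.4%, 20.5% and 14.7%, and with C-β-LG/DSF between 19.8% and 24.0%, so the α5 share of every injured library was above that of every Sham library. Gabra3 made up between 43.0% and 46.4% of the sum in Sham libraries, 25.2%, 35.5% and 33.8% in TBI 1 to 3 and between 34.2% and 37.7% with C-β-LG/DSF. The Gabra4 share was between 32.8% and 33.8% in Sham, 26.6%, 20.3% and 35.4% in TBI 1 to 3 and between 21.7% and 23.0% with C-β-LG/DSF.

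**Figure D2:**
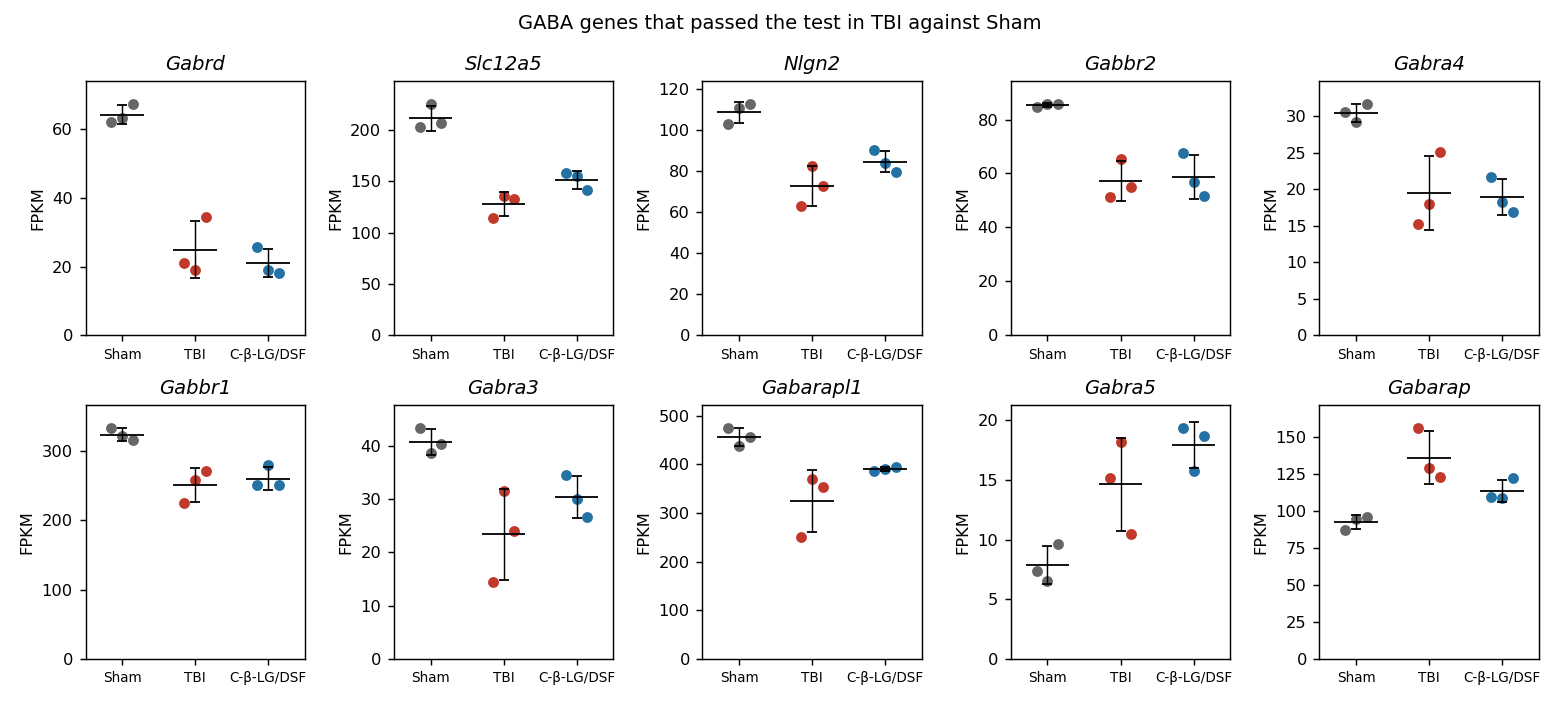
FPKM of the 10 GABA genes that passed the test in TBI against Sham, each point being a library, the line the group mean and the bar the SD of 3 libraries. Gabrd is at 62.1 to 67.3 in Sham and at most 34.5 in the injured libraries, while Gabra5 and Gabarap are higher in every injured library than in Sham.

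The β1 gene Gabrb1 (ENSMUSG00000029212.11) is the head-to-head neighbour of Gabra4 on chromosome 5. Gabra4 passed in TBI against Sham and Gabrb1 did not, and the difference between the 2 changes was not tested. In the table both carry the same locus, 71569749 to 72149037, while GENCODE M21 on GRCm38 places Gabra4 at 71569749 to 71658308 on the minus strand and Gabrb1 at 71658113 to 72149037 on the plus strand. In RefSeq (GRCm38.p6) Gabrb1 starts at 71657921 and Gabra4 at 71658308, so the first 388 bases of each lie opposite the other and reads there depend on the strand setting. Gabrb1 was at 5.19, 6.48 and 6.62 FPKM in Sham, at 5.43, 7.29 and 8.67 FPKM in TBI, which overlapped Sham, and at 9.23, 12.495 and 9.91 FPKM in C-β-LG/DSF, above both other groups. Its difference of TBI from Sham was 0.19 (95% interval -0.21 to 0.60, adjusted p = 0.465), where that of Gabra4 was -0.66. The RefSeq promoters of the 2 genes, from 250 bases before to 50 bases after the start, are shown because the genes share this short stretch of chromosome 5. Capitals mark matches to GCGNGGGCG, the motif of the EGR transcription factors, on either strand.
Gabra4, chr5:71658259-71658558, minus strand: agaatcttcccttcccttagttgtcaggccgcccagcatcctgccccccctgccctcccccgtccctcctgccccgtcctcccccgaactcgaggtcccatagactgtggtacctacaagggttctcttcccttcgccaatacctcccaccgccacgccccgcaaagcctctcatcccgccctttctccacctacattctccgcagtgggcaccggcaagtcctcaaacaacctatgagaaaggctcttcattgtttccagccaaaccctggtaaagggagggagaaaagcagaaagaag
Gabrb1, chr5:71657671-71657970, plus strand: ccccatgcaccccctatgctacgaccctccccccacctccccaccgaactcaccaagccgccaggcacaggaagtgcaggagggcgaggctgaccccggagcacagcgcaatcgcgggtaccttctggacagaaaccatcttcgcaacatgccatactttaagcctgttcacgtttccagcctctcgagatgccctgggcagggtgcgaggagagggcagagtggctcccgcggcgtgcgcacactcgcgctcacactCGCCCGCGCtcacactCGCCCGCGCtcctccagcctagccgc
The Gabrb1 window held 2 EGR matches and the Gabra4 window none. Over all 32851 RefSeq promoters of this length, 5.55% held the EGR motif. Among the members, 23 had promoters in the RefSeq table, 30 windows in all. Of these windows 4 (13.3%) held it, 1 each of Gabrb1, Gabrb2, Gad1 and Gphn, and none of these 4 genes passed the test in TBI. The EGR motif is made mostly of G and C, and the member windows had a median of 59.5% GC, where all promoters had 52.7%. The part of base composition in the motif shares was not tested. A CRE (TGACGTCA) was in none of the 30 windows and in 1.79% of all promoters, and a FoxO motif (GTAAACA) in none and in 3.65%. The NRF1 motif was in 1 member window, that of a second Gabrb1 promoter, and in 4.6% of all. All motifs were searched on both strands, and no member window held more than 1 of them.

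The remaining ionotropic subunit genes did not pass in TBI against Sham, and some of them varied more between libraries than between groups. Gabrb2, which encodes the β2 subunit, was at 3.05, 6.63 and 17.3 FPKM in Sham 1 to 3, at 1.37, 3.39 and 21.8 FPKM in TBI 1 to 3, and at 14.0, 23.4 and 20.3 FPKM in C-β-LG/DSF 1 to 3. Sham 3 and TBI 3 stood far above the other libraries of their groups, and the authors' interval of Sham 1 (1.03 to 5.07) did not reach that of Sham 3 (10.2 to 24.4). Striatal markers (10 genes) summed to 316 FPKM in Sham 3 against 174 and 169 in Sham 1 and 2, and to 522 in TBI 3 against 87.3 and 114 in TBI 1 and 2; their part in the Gabrb2 values was not tested. The log2 difference of Gabrb2 was -0.49 with a 95% interval of -2.38 to 1.40. It depended on single libraries, at -1.51 without TBI 3, -1.05 without Sham 1 and -0.25 without TBI 2, and it turned to 0.28 without TBI 1 and to 0.12 without Sham 3.

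Gabrq (the θ subunit) and Gabrr2 (the ρ2 subunit, best known from the retina) were near the detection limit. Gabrq was at 0.0551 to 0.127 FPKM in Sham, at 0.0491, 0.150 and 1.11 FPKM in TBI 1 to 3, and at 0.535, 2.22 and 1.08 FPKM in C-β-LG/DSF 1 to 3. Gabrr2 was at 0.141 to 0.264 FPKM in Sham, at 0.324, 0.218 and 0.809 FPKM in TBI and at 0.126, 1.48 and 1.29 FPKM in C-β-LG/DSF. Both were highest in TBI 3 and libraries 2 and 3 of C-β-LG/DSF, the libraries with the most thalamic and hypothalamic marker RNA. Gabrr2 reached 0.5 FPKM in those 3 libraries only, and Gabrq in those and in C-β-LG/DSF 1. Both thus met the FPKM rule only through libraries where they were high, so this pattern is in part set by that rule. The log2 differences of TBI from Sham, 0.50 for Gabrq and 0.43 for Gabrr2, were 0.03 and 0.17 without TBI 3. The authors' interval began at 0 in every library for Gabrr2 and in every library but C-β-LG/DSF 2 for Gabrq. Gabre, left out of the tests, was also highest there, with 0.464, 0.610 and 0.307 FPKM in those libraries and at most 0.102 FPKM in the others. Gabrg1, a γ subunit gene also expressed by astrocytes, was at 3.13 to 4.15 FPKM in Sham and 2.28 to 5.13 FPKM in TBI, and Gabrg3 at 2.505 to 4.08 and 1.52 to 3.09 FPKM. Gabrg3 passed, as lower in TBI, without TBI 3 (log2 difference -0.68, adjusted p = 0.0355, range 0.0355 to 0.515).

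**Figure D3:**
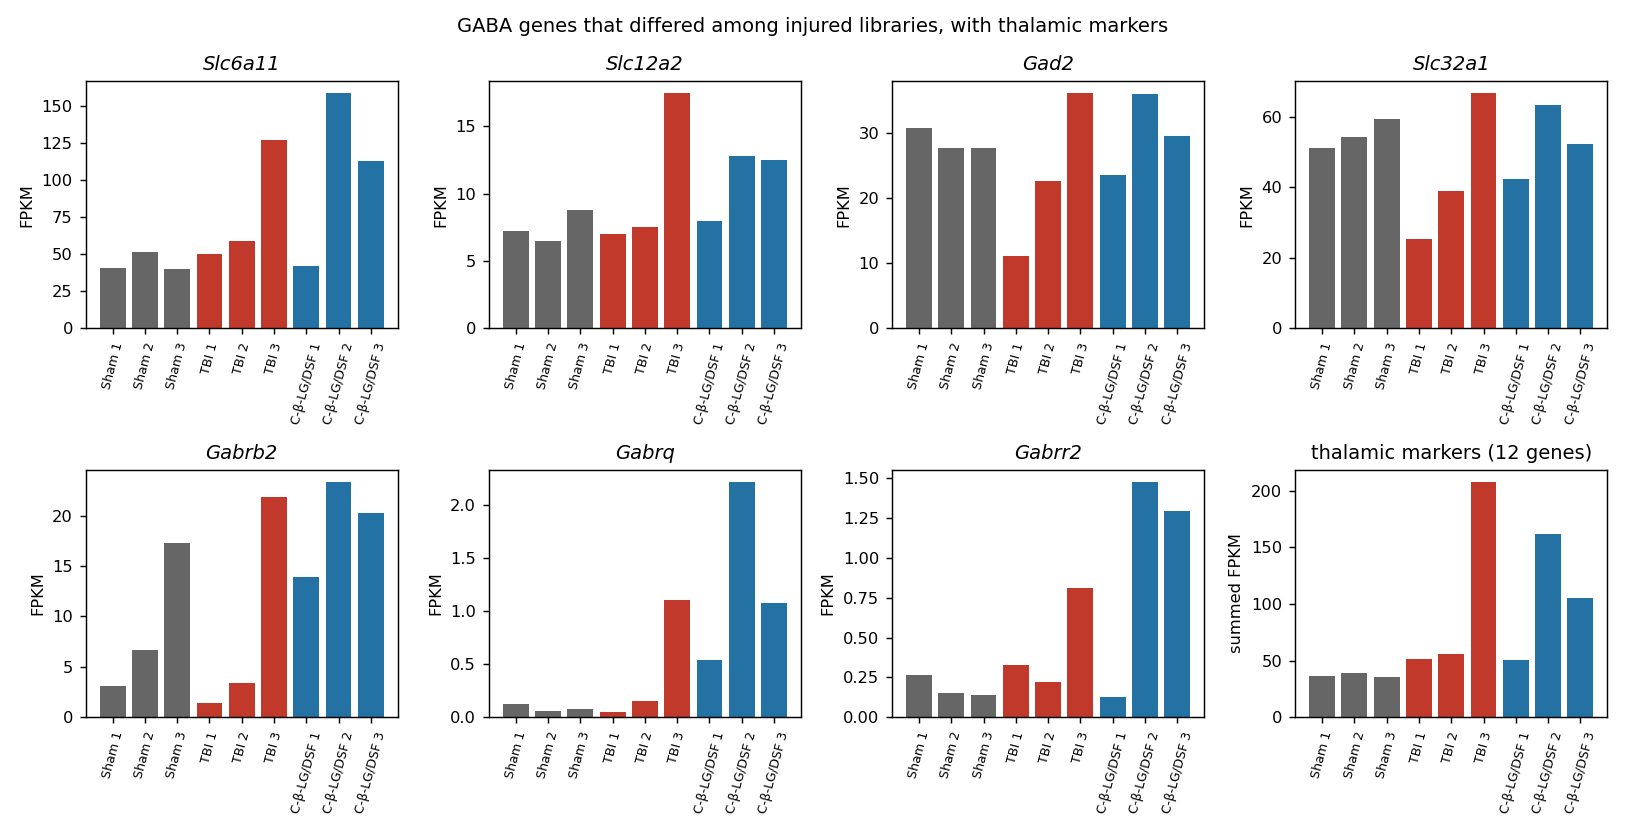
FPKM of 7 GABA genes in each library (bars, coloured by group) beside the summed FPKM of 12 thalamic marker genes. Slc6a11 is at 113 to 159 in TBI 3 and libraries 2 and 3 of C-β-LG/DSF and at 40.5 to 58.8 in the other 6 libraries.

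Both GABA-B receptor genes fell. Gabbr2 (ENSMUSG00000039809.10, chromosome 4, 46662305 to 46991873), whose product couples the dimer to G proteins, was at 84.5, 85.8 and 85.7 FPKM in Sham and at 51.3, 65.5 and 54.9 FPKM in TBI. The groups lay well apart, and the log2 difference was -0.58 (SE 0.12, adjusted p = 0.00744), called in all 17 alternatives. Gabbr1 (ENSMUSG00000024462.17, chromosome 17, 37045966 to 37075067), which binds GABA, was at 333, 321 and 315 FPKM in Sham and at 224, 258 and 271 FPKM in TBI, again without overlap. Its log2 difference was smaller, at -0.37 (SE 0.10, adjusted p = 0.0238), and its call ended after quantile normalization (0.056), without Sham 1, Sham 2 or Sham 3 in turn (0.0627 to 0.0786), without TBI 1 (0.0508) and in a fit of the 2 groups alone (0.0532), within a range of 0.0165 to 0.0786. Of 10 genes that work with the GABA-B receptor, 4 fell and 2 rose, where 12% of all tested genes fell and 14.9% rose. The potassium channel genes Kcnj9 (log2 difference -1.16, SE 0.13) and Kcnj3 (-1.04, SE 0.16), whose channels the receptor opens through G proteins, were among those that fell, and the G protein gene Gnai2 (0.92, SE 0.14), which is also abundant in myeloid cells, was among those that rose. All 9 microglia and macrophage markers rose in the same comparison, at a median of 1.82, and their part in the Gnai2 difference was not tested.

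The genes for GABA synthesis and vesicle loading had no call, and their values spread with the library. Gad1 (ENSMUSG00000070880.10, chromosome 2, 70553072 to 70602014), the glutamate decarboxylase gene that supplies most GABA in the cell body, was at 135, 130 and 132 FPKM in Sham and at 50.1, 79.6 and 121 FPKM in TBI 1 to 3. All TBI libraries were below Sham, TBI 3 only just, and the log2 difference of -0.75 did not pass (95% interval -1.34 to -0.16, adjusted p = 0.0612). Gad2, the decarboxylase gene of axon terminals, was at 27.6 to 30.6 FPKM in Sham and at 11.2, 22.6 and 36.1 FPKM in TBI. Slc32a1, which loads GABA into vesicles, was at 51.1 to 59.4 FPKM in Sham and at 25.5, 38.9 and 66.8 FPKM in TBI. In both, TBI 3 exceeded every Sham library while TBI 1 and TBI 2 lay below them. Antisense genes overlap Gad1 and Slc32a1, whose reads may not have been told apart. Without TBI 3 all 3 genes passed as lower: Gad1 by -1.06 (adjusted p = 0.00419, range 0.00419 to 0.141), Gad2 by -0.83 (0.045, range 0.045 to 0.999) and Slc32a1 by -0.79 (0.0181, range 0.0181 to 0.794). Without TBI 3 and libraries 2 and 3 of C-β-LG/DSF, Gad1 (adjusted p = 0.0114) and Slc32a1 (0.0248) passed as well. Interneuron markers fell in 4 of 18 cases, where 12% of all tested genes fell, and averaged -0.81, -0.41 and -0.31 in TBI 1 to 3.

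The plasma membrane GABA transporters did not pass either. Slc6a11, which takes up GABA into astrocytes, was at 40.9, 51.4 and 40.5 FPKM in Sham, at 50.3, 58.8 and 128 FPKM in TBI 1 to 3 and at 41.9, 159 and 113 FPKM in C-β-LG/DSF 1 to 3. The high values were in TBI 3 and libraries 2 and 3 of C-β-LG/DSF, and TBI and Sham overlapped. Its log2 difference of TBI from Sham was 0.71 (95% interval -0.35 to 1.77, adjusted p = 0.301), and 0.30 without TBI 3. Astrocyte markers were higher in every injured library, by 0.64 to 0.996 in log2 units, and did not share that order. Slc6a13, a transporter gene of meningeal and vascular cells, was at 4.10, 7.62 and 3.79 FPKM in Sham, at 8.69, 8.65 and 4.16 FPKM in TBI and at 8.29, 9.10 and 8.32 FPKM in C-β-LG/DSF. Its difference from Sham was 0.43 in TBI (adjusted p = 0.324), and it passed, at 0.76, only without TBI 3 among the alternatives (adjusted p = 0.0443, range 0.0443 to 0.635). Meningeal markers (11 genes) averaged -0.22, 0.53 and -0.31 in Sham 1 to 3 and 0.55 to 1.13 in the injured libraries, so Sham 2 was the highest of its group in both. Their part in the Slc6a13 values was not tested.

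The genes of GABA breakdown had no call. Abat, the GABA transaminase gene, was at 73.5 to 83.6 FPKM in Sham and at 59.5, 72.7 and 108 FPKM in TBI (log2 difference -0.02, 95% interval -0.50 to 0.46, adjusted p = 0.957). Aldh5a1, which encodes the succinate semialdehyde dehydrogenase that follows it, was at 16.3 to 24.1 and 14.97 to 18.5 FPKM (log2 difference -0.17, 95% interval -0.59 to 0.26, adjusted p = 0.552). In both genes the groups overlapped. Of 9 genes for the supply of glutamine and glutamate, 1 fell and 1 rose, near the shares of all tested genes (12% and 14.9%). The gene that rose was Slc38a5, a glutamine transporter gene (1.13, SE 0.31).

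At the inhibitory synapse, Nlgn2 (ENSMUSG00000051790.15, chromosome 11, 69823122 to 69837784), the neuroligin of inhibitory contacts, fell. It was at 103, 111 and 113 FPKM in Sham, at 63.3, 82.7 and 72.9 FPKM in TBI and at 90.3, 84.3 and 79.8 FPKM in C-β-LG/DSF. All TBI libraries lay below all Sham libraries, with a log2 difference of -0.58 (SE 0.11, adjusted p = 0.00463) that passed in all 17 alternatives. Gphn, which encodes the scaffold gephyrin, was at 19.6 to 21.01 FPKM in Sham and 15.2 to 18.7 FPKM in TBI, also without overlap, but did not pass (-0.27, 95% interval -0.50 to -0.05, adjusted p = 0.0745). It passed without TBI 3 (-0.35, adjusted p = 0.0249) and without TBI 3 and libraries 2 and 3 of C-β-LG/DSF (adjusted p = 0.0347), within a range of 0.0249 to 0.194. Of 11 tested partners at the inhibitory postsynapse, 5 fell and 1 rose, where 12% of all tested genes fell and 14.9% rose. Iqsec3, a gephyrin-binding exchange factor gene, fell (-0.54, SE 0.11), and Mdga1, which encodes a protein that binds neuroligin and keeps it from neurexin, rose (1.04, SE 0.15). Of 12 receptor trafficking genes, 4 fell and 1 rose, beside the same shares of all tested genes. The phospholipase-related gene Plcl2 (-0.54, SE 0.11) and the exchange factor gene Arfgef2 (-0.34, SE 0.09) fell, and Hap1, which links receptors to kinesin, rose (0.96, SE 0.22).

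Of the chloride transporter genes, Slc12a5 fell and Slc12a2 was not called. Slc12a5 (ENSMUSG00000017740.17, chromosome 2, 164960802 to 164999731), the neuronal chloride exporter, was at 203, 225 and 206 FPKM in Sham, at 114, 136 and 132 FPKM in TBI and at 158, 155 and 142 FPKM in C-β-LG/DSF. The 3 groups did not overlap, with C-β-LG/DSF between the other two. TBI differed from Sham by -0.73 (SE 0.10, adjusted p = 0.00152), or 1.66-fold lower, and passed in all 17 alternatives. The gene has 2 RefSeq promoters (GRCm38.p6). The downstream promoter, on chromosome 2, held the CACGTG E-box in capitals here, a sequence that 7.15% of all promoters held and no other member window did.
Slc12a5, chr2:164967738-164968037, plus strand: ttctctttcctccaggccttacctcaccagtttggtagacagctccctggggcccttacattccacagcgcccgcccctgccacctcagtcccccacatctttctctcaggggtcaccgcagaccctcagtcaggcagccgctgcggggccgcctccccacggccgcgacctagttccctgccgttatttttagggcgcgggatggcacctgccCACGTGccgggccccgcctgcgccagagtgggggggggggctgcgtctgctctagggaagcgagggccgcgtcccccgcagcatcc
The chloride importer Slc12a2 was at 6.46 to 8.82 FPKM in Sham, at 6.996, 7.54 and 17.5 FPKM in TBI 1 to 3 and at 7.98, 12.8 and 12.53 FPKM in C-β-LG/DSF 1 to 3. It was again highest in TBI 3 and libraries 2 and 3 of C-β-LG/DSF, and its log2 difference of TBI from Sham, 0.37 (95% interval -0.35 to 1.09, adjusted p = 0.43), was -0.03 without TBI 3. Oligodendrocyte markers (11 genes), a cell type that also expresses Slc12a2, averaged 1.33 in TBI 3, 0.70 in C-β-LG/DSF 2 and 0.65 in C-β-LG/DSF 3 and at most 0.34 in the other libraries; choroid plexus markers (7 genes), of which Kcne2, Clic6 and Otx2 were listed at 0 in at least 1 library, summed to 284 FPKM in TBI 3 and to 1.02 to 43.8 FPKM elsewhere. Their part in the Slc12a2 values was not tested. Of 12 other genes for chloride transport and its WNK and SPAK kinases, 3 fell and 1 rose, where 12% of all tested genes fell and 14.9% rose. Among them were the anion exchanger gene Slc4a3, which fell (-0.45, SE 0.10), and the cotransporter gene Slc12a4, which rose (0.77, SE 0.14).

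The within-library log2 ratio of Slc12a2 to Slc12a5, from FPKM + 0.5, was -4.71, -5.02 and -4.47 in Sham, -3.94, -4.09 and -2.88 in TBI, and -4.22, -3.55 and -3.45 in C-β-LG/DSF. It was higher in every injured library than in every Sham library. The mean was -4.73 ± 0.27 (SD, n = 3) in Sham and -3.64 ± 0.66 (SD, n = 3) in TBI (exact permutation test, two-sided p = 0.1, the smallest that 3 against 3 allows) and stood at -3.74 ± 0.42 (SD, n = 3) in C-β-LG/DSF. Over the 9 ratio tests made, the Benjamini-Hochberg value of these exact tests was 0.15, so none passed. The difference of TBI from Sham in this ratio was 1.099, and 0.72 without TBI 3. In TBI 1 and TBI 2, Slc12a2 was within the Sham range and Slc12a5 below it.

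The 2 GABARAP family genes, whose products carry receptors to the surface and take part in autophagy, changed in opposite directions. Gabarap (ENSMUSG00000018567.14, chromosome 11, 69991143 to 69994951) was at 87.3, 94.4 and 96.3 FPKM in Sham, at 156, 129 and 123 FPKM in TBI and at 109, 109 and 122 FPKM in C-β-LG/DSF. TBI lay above both other groups, and rose from Sham by 0.55 (SE 0.10, adjusted p = 0.00584), called in all 17 alternatives. Gabarapl1 (ENSMUSG00000030161.8, chromosome 6, 129533160 to 129542346) was at 475, 437 and 455 FPKM in Sham, at 251, 369 and 353 FPKM in TBI and at 385, 391 and 393 FPKM in C-β-LG/DSF. Its log2 difference of TBI from Sham was -0.51 (SE 0.14, adjusted p = 0.0269), with TBI 1 lowest, and the call ended after quantile normalization (0.0516), without Sham 1, Sham 2 or Sham 3 in turn (0.0607 to 0.086), without TBI 3 and libraries 2 and 3 of C-β-LG/DSF (0.0581) and in a fit of the 2 groups alone (0.0653), over a range of 0.0192 to 0.086.

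The log2 ratio of Gabarapl1 to Gabarap was 2.44, 2.21 and 2.23 in Sham, 0.68, 1.51 and 1.52 in TBI, and 1.81, 1.84 and 1.68 in C-β-LG/DSF. The groups did not overlap in any of the 3 comparisons. In each of them both genes were already without overlap, and in opposite directions. The separation of the ratio, and the outcome of its exact permutation tests, were therefore fixed by those values and are no further support. The mean was 2.29 ± 0.13 (SD, n = 3) in Sham, 1.24 ± 0.48 (SD, n = 3) in TBI and 1.78 ± 0.08 (SD, n = 3) with C-β-LG/DSF, and each of the 3 exact permutation tests gave the smallest possible p = 0.1. The difference between C-β-LG/DSF and TBI was 0.54, and 0.26 without TBI 1. The log2 ratio of Gad2 to Gad1 was -2.24 to -2.12 in Sham, -2.12, -1.79 and -1.73 in TBI and between -1.96 and -1.77 with C-β-LG/DSF. The exact permutation test gave p = 0.2 for TBI against Sham and 0.1 for C-β-LG/DSF against Sham, and TBI 1 lay at the edge of the Sham range.

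**Figure D4:**
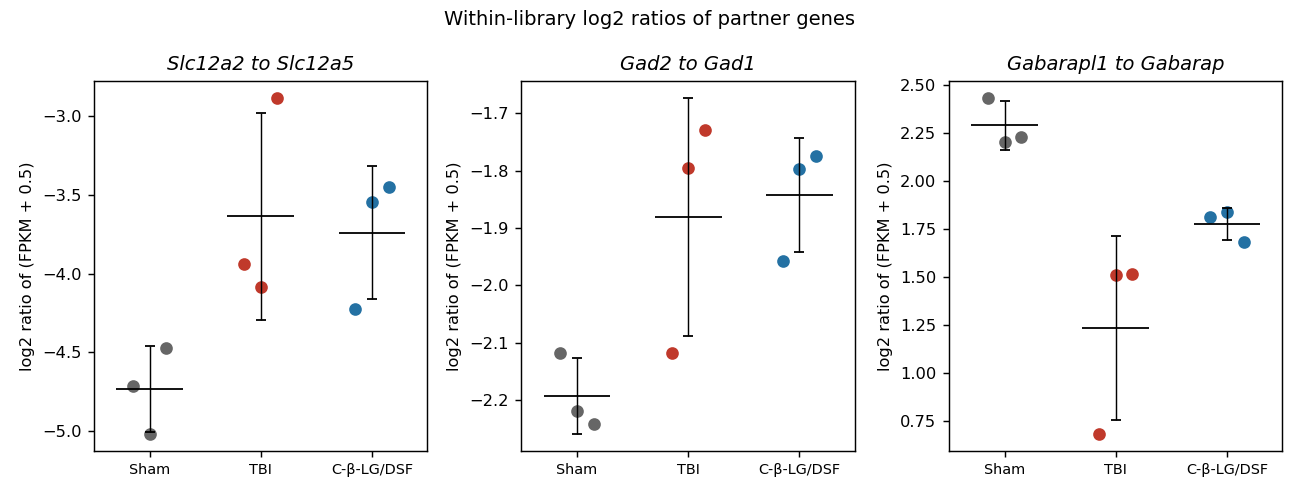
Within-library log2 ratios of (FPKM + 0.5) for 3 pairs of genes (vertical axes), by group, with each point a library, the line the mean and the bar the SD. The ratio of Gabarapl1 to Gabarap lies between 2.21 and 2.44 in Sham, 0.68 and 1.52 in TBI, and 1.68 and 1.84 with C-β-LG/DSF.

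Next, C-β-LG/DSF was set against TBI to see if the agent changed these genes after injury. No member passed the test by limma, where 0 of 14292 genes did (0%). At an unadjusted p under 0.05 there were 3 members (11.5%), Gabrb1, Slc12a5 and Gabarap, beside 11.8% of all tested genes, so the share was near the background. Leaving out 1 library moved that count and the one over all genes, which was 1693 of 14292. There were 12 members and 3385 genes without TBI 3, 8 and 2182 without TBI 2, 5 and 1386 without C-β-LG/DSF 1, 1 and 879 without TBI 1, and 0 and 1011 without C-β-LG/DSF 2. Of the 26 members, 23 had a positive difference, where 6680 of the 14292 tested genes did. The median of the members was 0.27, against -0.02 over all tested genes and 0.24 in the 18 neuronal markers. The members share the same 6 libraries, and TBI 1 had the lowest neuronal marker level of all. The groups did not overlap in 4 members (15.4%), beside 15.3% of all tested genes. Gabrb1, Slc12a5 and Gabarapl1 were higher in every C-β-LG/DSF library than in every TBI library, and Gabarap was lower.

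For these 4 genes the differences of C-β-LG/DSF from TBI were 0.55 for Gabrb1 (95% interval 0.14 to 0.95, adjusted p = 0.394), 0.25 for Slc12a5 (95% interval 0.04 to 0.46, adjusted p = 0.399), 0.29 for Gabarapl1 (95% interval -0.03 to 0.60, adjusted p = 0.45) and -0.26 for Gabarap (95% interval -0.49 to -0.02, adjusted p = 0.405). Without TBI 1 the differences were 0.37 for Gabrb1, 0.17 for Slc12a5, 0.11 for Gabarapl1 and -0.15 for Gabarap. Slc12a5, Gabarapl1 and Gabarap of C-β-LG/DSF lay between those of TBI and Sham in every library. The mean of Gabrd was 24.9 ± 8.39 FPKM in TBI and, with C-β-LG/DSF, 20.95 ± 4.14 FPKM (each SD, n = 3). The log2 difference was -0.21 (95% interval -0.68 to 0.26, adjusted p = 0.666), and it was -0.37 without C-β-LG/DSF 1, -0.38 without TBI 2 and -0.12 without C-β-LG/DSF 3, and turned to 0.04 without TBI 3 and to 0.35 without TBI 3 and libraries 2 and 3 of C-β-LG/DSF. Gabra5 was at 14.6 ± 3.89 and 17.9 ± 1.91 FPKM (SD, n = 3 each), a difference of 0.31 (95% interval -0.14 to 0.77, adjusted p = 0.519), which was 0.10 without TBI 3 and 0.49 without TBI 2. Gabbr2 differed by 0.04 (95% interval -0.23 to 0.30) and Gabra4 by -0.02 (95% interval -0.39 to 0.36). Neither kept its sign: Gabbr2 ranged from -0.07 without C-β-LG/DSF 1 to 0.22 without TBI 3 and libraries 2 and 3 of C-β-LG/DSF, and Gabra4 from -0.17 without TBI 1 to 0.37 without TBI 3 and libraries 2 and 3 of C-β-LG/DSF, with 0.18 without TBI 3. The largest difference was in Gabrb2, at 1.82 with a 95% interval of -0.07 to 3.71 (adjusted p = 0.43), which was 2.84 without TBI 3 and 1.05 without TBI 1.

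**Figure D5:**
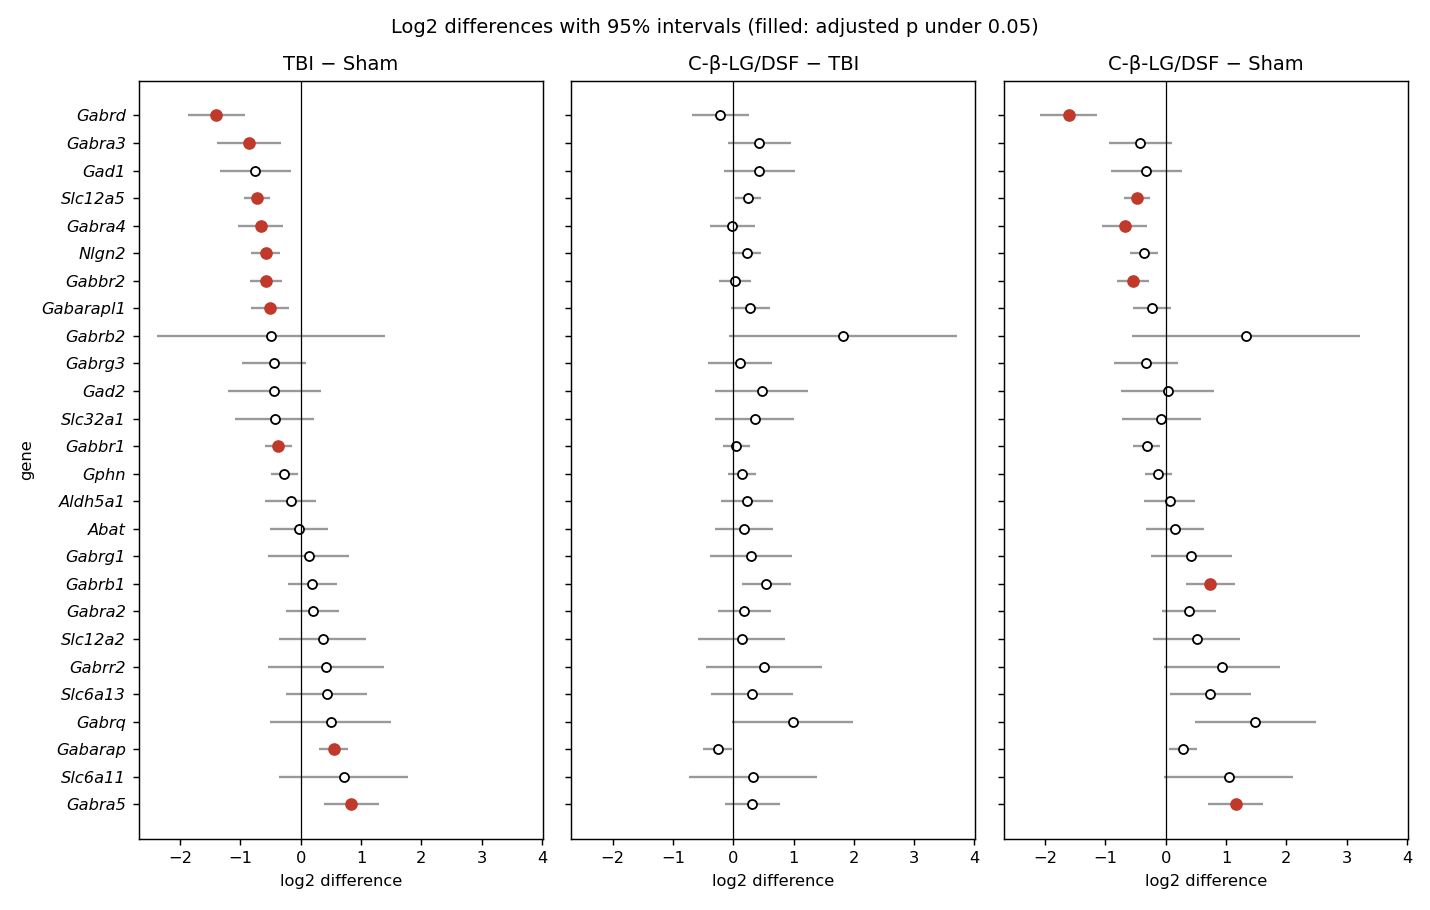
Log2 differences (horizontal axes) of the 26 tested GABA genes in the 3 comparisons, with 95% intervals of the fit as lines; filled points passed an adjusted p of 0.05. In TBI against Sham 10 genes are filled, between C-β-LG/DSF and TBI none and between C-β-LG/DSF and Sham 6.

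C-β-LG/DSF was last set against Sham, whose libraries the first comparison also used. This gave 4 members lower (15.4%) and 2 higher (7.69%), where 6.88% of all tested genes were lower and 6.37% higher, 13.3% in all. At an unadjusted p under 0.05 there were 11 members (42.3%), beside 29.8% of all tested genes. The calls went from 4 lower and 2 higher to 1 or 2 lower and 1 higher without Sham 1, Sham 2, Sham 3, C-β-LG/DSF 2 or C-β-LG/DSF 3. They went to 7 lower and 4 higher without TBI 1, 5 lower and 3 higher without TBI 2, 6 lower and 4 higher without TBI 3, and 4 lower and 5 higher without C-β-LG/DSF 1. Over all genes, 984 lower and 911 higher became 369 to 497 and 291 to 503 in the first set of fits and 915 to 1396 and 623 to 1535 in the second. Gabrd fell by 1.61 on the log2 scale (SE 0.21, adjusted p = 0.00283), or 3.05-fold, and passed in all 17 alternatives. Gabra4 (-0.68, SE 0.17, adjusted p = 0.0281), Gabbr2 (-0.54, SE 0.12, adjusted p = 0.0177) and Slc12a5 (-0.48, SE 0.10, adjusted p = 0.0129) were also lower. Gabra5 (1.16, SE 0.20, adjusted p = 0.008005) and Gabrb1 (0.74, SE 0.18, adjusted p = 0.0278) were higher. Without TBI 3 and libraries 2 and 3 of C-β-LG/DSF, a single C-β-LG/DSF library was left, assumed to vary like the other groups, and of these 6 genes Gabrd alone passed; Gabra5 differed by 1.27 there (adjusted p = 0.0532). The calls of Gabra4, Gabbr2 and Gabrb1 also ended when Sham 1, Sham 2, Sham 3, C-β-LG/DSF 2 or C-β-LG/DSF 3 was left out, and that of Slc12a5 without Sham 2 or C-β-LG/DSF 3. Their adjusted p ranged up to 0.129 for Gabra4, 0.292 for Gabbr2, 0.246 for Gabrb1 and 0.199 for Slc12a5.

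Members called in TBI but not here included Nlgn2 (-0.36, adjusted p = 0.0525), Gabbr1 (-0.31, adjusted p = 0.0664), Gabarap (0.29, adjusted p = 0.0989), Gabarapl1 (-0.22, adjusted p = 0.327) and Gabra3 (-0.42, adjusted p = 0.26). All of these kept to 1 side of Sham in every C-β-LG/DSF library, and their differences between C-β-LG/DSF and TBI did not pass. In a fit of the 2 groups alone, Nlgn2 (adjusted p = 0.0137, range 0.0137 to 0.442), Gabbr1 (0.0274, range 0.0257 to 0.238), Gabarap (0.0327, range 0.0311 to 0.431) and Gabra3 (0.0235, range 0.0235 to 0.791) passed here. In the like fit of TBI and Sham, Gabra3, Gabbr1 and Gabarapl1 did not, so these genes are not shown to differ between the 2 comparisons. In 15 members (57.7%) C-β-LG/DSF and Sham did not overlap, beside 43.1% of all tested genes. Slc6a11 differed by 1.04 (95% interval -0.02 to 2.11, adjusted p = 0.176), by -0.07 without TBI 3 and libraries 2 and 3 of C-β-LG/DSF, and by 1.60 without C-β-LG/DSF 1, where it passed. Gabrq (1.49, 95% interval 0.48 to 2.49, adjusted p = 0.0571) and Gabrr2 (0.93, 95% interval -0.03 to 1.89, adjusted p = 0.179) had the same high libraries, and without TBI 3 and libraries 2 and 3 of C-β-LG/DSF they differed by 0.82 and -0.13. Since Gabrq and Gabrr2 met the FPKM rule only through injured libraries, their differences from Sham are in part set by that rule. Gad1, Gad2 and Slc32a1 differed by -0.32, 0.03 and -0.07, with 95% intervals of -0.91 to 0.27, -0.74 to 0.80 and -0.73 to 0.58, and by -0.52, -0.28 and -0.36 without TBI 3 and libraries 2 and 3 of C-β-LG/DSF.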

How the data were processed

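Per the labels, total RNA of mouse brain (Trizol) was sequenced from a stranded total RNA kit. The submitters' processing notes name HISAT2 2.1.0 and Cufflinks 2.2.1. The authors deposited FPKM per gene and library with the bounds of an interval around each value; the sources used here give no build or annotation, and the positions match GRCm38. Starts were moved to count from 1, 26 symbols that had become dates were restored from identifiers, and 1 emptied line was dropped. Genes with an FPKM of 0.5 or more in at least 3 of 9 libraries were analysed as log2(FPKM + 0.5), which understates changes of low genes, in limma 3.58.1 (R 4.3.3) with 1 mean per group, a variance trend, two-sided tests and Benjamini-Hochberg adjustment over 14292 genes; the procedure was tested on simulated data. Differences are the first group minus the second, and intervals are 95% intervals of the fit. With 3 libraries against 3 an exact permutation test cannot give a two-sided p under 0.1. The members, the lists of 5 pathway groups and 12 cell type and region markers, and the tests were chosen with earlier results of these data known. All members are named, and up to 3 genes of smallest p in TBI against Sham per pathway list, of which some are not reported here. Values of a marker list per library are means of log2(FPKM + 0.5) relative to the Sham mean. Alternatives were other pseudocounts (1 and 0.1), no filter, quantile normalization, equal totals, the replicate number as a block, fits of 2 groups, leaving out each library and, added after seeing the data, leaving out TBI 3 and libraries 2 and 3 of C-β-LG/DSF together.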

Additional observations from a re-analysis of the deposited data

How the results depend on the processing

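Of the 10 members called in TBI against Sham, 5 passed in all 17 alternatives and none changed direction; of the 6 called in C-β-LG/DSF against Sham, 1 passed in all 17 and none changed direction. Leaving out 1 library gave 4 to 13 members lower and 1 to 3 higher in TBI against Sham (8 and 2 with all libraries), 1 to 7 lower and 1 to 5 higher in C-β-LG/DSF against Sham (4 and 2), and 0 in C-β-LG/DSF against TBI. A fit of only the 2 groups compared gave 5 lower in the first and 7 lower and 5 higher in the last, and leaving out TBI 3 and libraries 2 and 3 of C-β-LG/DSF gave 1 lower and 0 higher in the last, with 3 libraries fewer. With the replicate number as a block the counts were 8 lower and 2 higher, 0, and 4 lower and 2 higher, as without it; the numbers pair nothing in the labels, and the deviations of same-numbered libraries correlated at -0.09 to 0.33. Quantile normalization moved the calls over all genes in TBI against Sham from 2127 higher and 1709 lower to 1581 and 1895, and equal totals those of C-β-LG/DSF against Sham from 911 and 984 to 1323 and 702, with medians of all genes moved by less than 0.1. The difference of C-β-LG/DSF from TBI in the ratio of Slc12a2 to Slc12a5 was -0.10 and reversed to 0.14 without C-β-LG/DSF 1 and 0.27 without TBI 3 (range -0.33 to 0.27), and that in the ratio of Gad2 to Gad1 was 0.04 and reversed to -0.081 without TBI 1 (range -0.081 to 0.11); the cause was not tested. Among members not called, the sign changed under some alternative in 6 of 16, 12 of 26 and 7 of 20. FPKM without fragment counts gives no counting error; the authors' intervals reached, at the median of genes of 10 to 100 FPKM, 45.9% to 46.8% to either side.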

Other observations

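Beside the GABA genes, the marker lists not yet described gave these values. Over all tested genes, 12% fell and 14.9% rose in TBI against Sham. With C-β-LG/DSF against Sham, 6.88% were lower and 6.37% higher. Cortical excitatory markers fell in 7 of 12 cases in TBI against Sham (median -0.91) and in 7 of 12 with C-β-LG/DSF (median -0.94), and they were lowest in TBI 3 (-1.07) and C-β-LG/DSF 2 (-1.003). Astrocyte markers rose in 7 of 12 cases in TBI and 4 of 12 in C-β-LG/DSF, oligodendrocyte markers in 5 and 1 of 11, meningeal markers in 4 and 5 of 11, and choroid plexus markers in 2 and 1 of 6 tested. Thalamic markers rose in 2 of 12 cases and hypothalamic and midbrain markers in 2 of 10 tested in each comparison with Sham, and no striatal marker passed. Between C-β-LG/DSF and TBI no gene of these lists passed. Against Sham, with C-β-LG/DSF, GABA-B partner genes were higher in 2 and lower in 3 of 10 cases, inhibitory postsynaptic genes in 1 and 2 of 11, trafficking genes in 1 and 2 of 12, supply genes in 0 and 0 of 9, and chloride regulators in 0 and 3 of 12.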
